A study of Mus musculus with 50 samples.

Results

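Cell cycle genes were examined in mouse liver and liver tumours across diet, tissue type and carcinogen exposure. The 56 genes were taken from the count table by gene symbol, out of 45792 genes in all. Their symbols matched 57 rows, and where rows shared a symbol the one with the most counts was used. The genes were placed in 3 phases by what their products are known to do. There were 15 G1 and G1/S genes (cyclins D and E, their kinases, the Ink4 inhibitors, E2F factors, Rb1 and Myc), 14 replication genes and 27 mitotic genes. Membership follows gene symbols and applies no expression threshold, although the genes were proposed with earlier results of these data known.

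RNA-seq counts came from C3H/He mice, described by the study as male, that were fed either a control diet or the American lifestyle diet (ALIOS, high in fat, trans-fat and fructose) and harvested at 48 weeks. Of the 49 libraries used, 12 were non-tumour liver samples from control-fed mice (N1 to N12) and 11 such samples from mice on ALIOS (N13 to N23). The study relates these livers to the number and size of tumours in the same mice, so they are not all from tumour-free mice. The others were 12 tumours on ALIOS without carcinogen, 1 tumour on the control diet without carcinogen (T7), and tumours of mice given diethylnitrosamine (DEN, a liver carcinogen). Of the DEN tumours 8 were on ALIOS and 5 on the control diet. There were no livers of DEN-treated mice, so each DEN tumour group was set against livers of mice not given DEN, and carcinogen and tumour cannot be told apart there. The dose and timing of DEN are not given in the sources used here, and no label ties a tumour to the liver of the same mouse. C3H/He is a strain prone to liver tumours, so the tumours without DEN stand for that background as well as for the diet.

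A cell enters the cycle when D cyclins, with their partner kinases Cdk4 and Cdk6, inactivate the retinoblastoma protein and release E2F transcription factors, a step that the Ink4 inhibitors (Cdkn2a, Cdkn2b, Cdkn2c) oppose. Cyclin E with Cdk2 then drives the start of DNA synthesis, for which the Mcm helicase, its loaders and the enzymes of nucleotide supply are made, and B cyclins with Cdk1 drive mitosis later. Adult hepatocytes are mostly resting cells that can re-enter the cycle after injury, and in liver tumours cycling cells are more frequent.

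Total counts per library ranged from 23798251 to 45751398 (median 32351263). Tumour T1 was left out: its library held 37.9 CPM (counts scaled to a common library total) of Alb, the albumin gene of hepatocytes, against 54150 to 203900 in the other tumours, and 35350 CPM of the kidney gene Kap. The T1 values are scaled by its library total alone, and those of the other tumours by TMM as well. Tumours T2 and T6, on ALIOS without DEN, were kept, although Afp, a fetal liver gene used as a tumour marker, was at 3.60 and 5.05 CPM there and between 104 and 484 CPM in the other 10 tumours of that group. Livers N17 and N19 stood apart from the other ALIOS livers in the summed level of the mitotic genes (53.2 and 69.6 CPM, against a group median of 27.1 CPM). In the study's own clustering T6 was placed with the livers, near N17 and N19. Results that rest on these 4 libraries are given with and without them, a choice made after the values were seen. All levels below are CPM after TMM scaling over the 49 libraries, and a gene is called where the adjusted p from the quasi-likelihood test of edgeR, with Benjamini-Hochberg adjustment over all genes tested, was under 0.05. Since nothing in the labels describes repeat sampling, the p-values measure the spread between these samples.

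Promoter sequence did not enter the choice of the genes and was searched by phase. RefSeq promoters of GRCm38.p6, from 250 bases before the start of transcription to 30 bases after it, were at hand for 45 of the 56 genes, and 3 motifs were searched on both strands. The motifs were the cell cycle genes homology region (CHR, TTTGAA), which is known from promoters of mitotic genes, the CCAAT box (CCAAT), and the E2F motif (TTTCCCGC, TTTCGCGC, TTTGCCGC or TTTGGCGC), which is known from promoters of replication genes. The CHR was in the promoters of 11 of 22 mitotic genes (50%), 2 of 13 replication genes (15.4%) and 2 of 10 G1 genes (20.0%), against 19.5% of 27025 genes with a promoter. The E2F motif was in 1 of 22 mitotic genes (4.55%, Cdk1), 5 of 13 replication genes (38.5%: Cdc6, Mcm3, Mcm5, Mcm6 and Mcm7) and 3 of 10 G1 genes (30%: Cdk2, Cdkn2a and E2f7), against 2.45% of all genes. CHR and CCAAT box together were in 50% of the mitotic genes and 7.37% of all genes. These are matches of letters, not sites of binding, and the motifs were chosen after the expression values were seen. The promoters of 11 genes (Aurkb, Ccna2, Ccnd1, Ccnd2, Ccne2, Foxm1, Kif20a, Mcm4, Myc, Rb1 and Tpx2) were not in the table.

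Promoters of 3 mitotic and 2 replication genes are shown because they carry these motifs and because their genes differ in the comparisons that follow. Each is read 5′ to 3′ along the strand of the gene, and capitals mark the motifs, with overlapping matches run together. Ccnb2 (cyclin B2, chr9:70421525-70421804, minus strand) has CHR letters at -167 and 5 from the start, and Ube2c (an E2 enzyme of the anaphase-promoting complex, chr2:164769679-164769958, plus strand) at -29. Cdk1 (the mitotic kinase, chr10:69352883-69353162, minus strand) holds all 3 motifs. Mcm5 (chr8:75109259-75109538, plus strand) and Mcm6 (chr1:128359676-128359955, minus strand), both subunits of the replicative helicase, have E2F letters from -153 and from -110 and no CHR.
Ccnb2: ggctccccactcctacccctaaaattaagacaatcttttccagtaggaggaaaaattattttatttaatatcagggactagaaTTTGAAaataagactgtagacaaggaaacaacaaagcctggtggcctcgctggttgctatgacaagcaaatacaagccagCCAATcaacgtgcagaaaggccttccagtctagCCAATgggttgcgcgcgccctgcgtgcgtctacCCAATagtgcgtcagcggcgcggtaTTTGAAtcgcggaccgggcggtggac
Ube2c: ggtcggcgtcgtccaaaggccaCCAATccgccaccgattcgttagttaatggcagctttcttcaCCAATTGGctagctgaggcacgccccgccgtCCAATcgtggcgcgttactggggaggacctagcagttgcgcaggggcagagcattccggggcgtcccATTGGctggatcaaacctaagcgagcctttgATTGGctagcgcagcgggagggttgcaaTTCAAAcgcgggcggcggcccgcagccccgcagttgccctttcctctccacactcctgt
Cdk1: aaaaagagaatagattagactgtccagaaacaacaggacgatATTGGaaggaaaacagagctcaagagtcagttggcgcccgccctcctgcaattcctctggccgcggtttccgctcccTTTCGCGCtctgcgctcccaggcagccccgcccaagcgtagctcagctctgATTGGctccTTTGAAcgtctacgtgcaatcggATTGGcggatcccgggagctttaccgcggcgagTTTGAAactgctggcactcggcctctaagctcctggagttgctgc
Mcm5: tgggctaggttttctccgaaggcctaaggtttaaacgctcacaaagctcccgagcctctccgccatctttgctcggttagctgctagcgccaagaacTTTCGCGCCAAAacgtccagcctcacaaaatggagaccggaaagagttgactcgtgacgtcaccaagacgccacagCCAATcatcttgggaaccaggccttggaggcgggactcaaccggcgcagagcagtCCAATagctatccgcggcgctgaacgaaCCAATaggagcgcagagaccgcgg
Mcm6: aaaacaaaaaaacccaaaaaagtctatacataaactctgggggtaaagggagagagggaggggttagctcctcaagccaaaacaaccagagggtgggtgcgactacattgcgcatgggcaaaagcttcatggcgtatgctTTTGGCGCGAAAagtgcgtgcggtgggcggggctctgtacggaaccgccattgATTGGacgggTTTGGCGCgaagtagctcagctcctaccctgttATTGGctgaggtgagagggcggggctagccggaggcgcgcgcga

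The genes called differed by phase and comparison. Most genes called higher in ALIOS livers against control livers were replication genes. In tumours without DEN they were mitotic and G1 genes, and in DEN tumours on the control diet genes of all 3 phases. For diet in liver the sizes of change were closer, with median log2 changes of 0.81 for 14 replication and 0.67 for 15 mitotic genes tested. In edgeR 10 of each were higher at an unadjusted p under 0.05 (all genes: 1973 of 13723). A difference in diet effect between phases was not tested. These statements hold for edgeR with all libraries of the groups compared: 12 mitotic genes could not be tested for diet in liver, where DESeq2 called 9 mitotic and 9 replication genes, and without N17 and N19, 5 of 14 replication genes rose in tumours without DEN. Mitotic genes too low to test in livers alone were tested in tumours largely through tumour counts, and could hardly be called lower there.

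**Figure D1:**
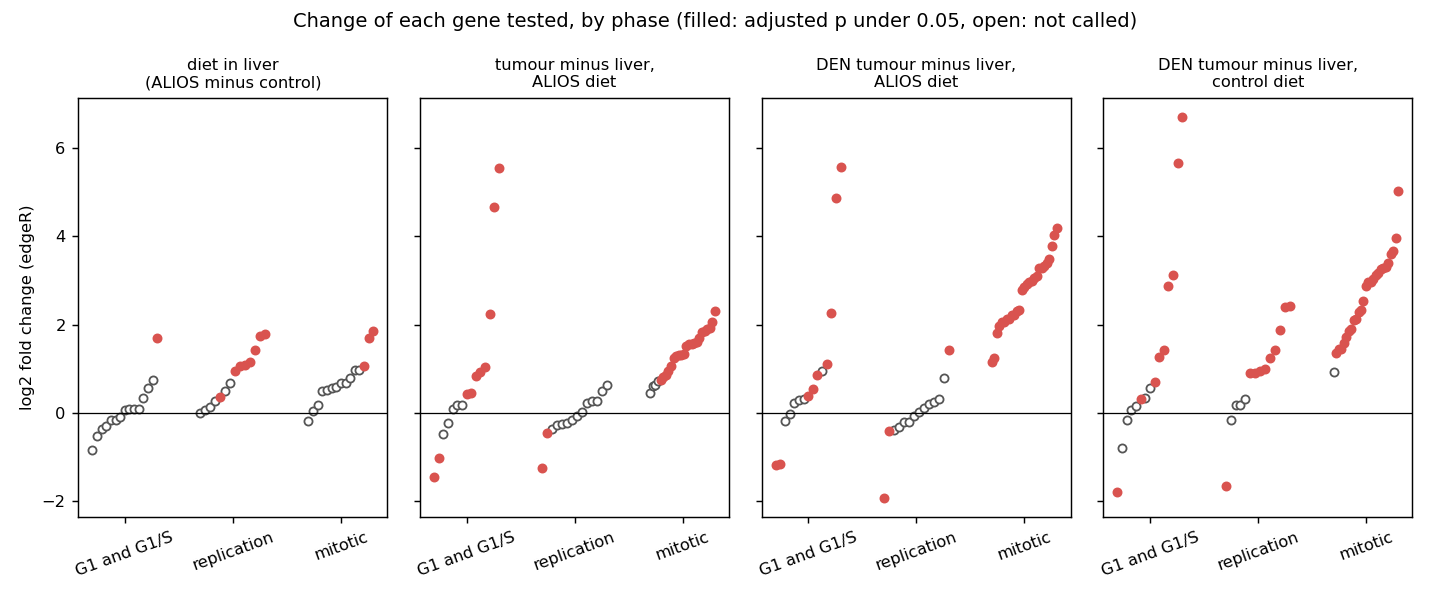
Log2 fold change (y axis, from edgeR) of every cell cycle gene tested, in 4 comparisons (panels), by phase (x axis, genes sorted by value). Filled points have an adjusted p under 0.05 and open points do not. In tumours on ALIOS the replication genes lie around 0, with medians of -0.12 without DEN and -0.02 with DEN. The mitotic genes, some of them too low to test in livers alone, lie above 0.

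The counts behind this are as follows. In ALIOS against control livers 44 of the 56 genes passed the filter on low counts, and 12 rose and 0 fell (all genes tested: 6.73% higher, 4.51% lower). In tumours without DEN against livers, both on ALIOS, 55 were tested, of which 30 rose and 4 fell (all genes: 26.9% higher, 25.9% lower). All 56 were tested in DEN tumours against livers on ALIOS, where 35 rose and 4 fell (all genes: 27.7% higher, 19.8% lower). Against control livers, the DEN tumours on the control diet had 43 genes higher and 2 lower (all genes: 27.3% higher, 24.4% lower). These 4 comparisons share livers, the first 3 the ALIOS livers and the first and the last the control livers, so they are not independent of each other.

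Between tumours no cell cycle gene was called. In DEN tumours against tumours without DEN on ALIOS, edgeR called 0 of 56 (0% of all genes), with 28 genes higher and 1 lower at an unadjusted p under 0.05 (all genes: 4.32% higher, 2.95% lower). DESeq2 called 10 of the 56 there (all genes: 0.372% higher, 0.161% lower), and edgeR with all 49 libraries in one fit called 18 (all genes: 1.9% higher, 0.372% lower). In ALIOS against control diet DEN tumours edgeR again called 0 of 56 (0.0134% of all genes), with 9 higher and 2 lower at an unadjusted p under 0.05 (all genes: 4.56% higher, 3.96% lower), and neither DESeq2 (all genes: 0.382% higher, 0.525% lower) nor the fit of all 49 libraries (0.965% and 0.705%) called any. The difference between the diet effect in DEN tumours and that in livers, called the interaction below, which is also the tumour to liver difference on ALIOS minus that on the control diet, gave 3 genes lower and 0 higher (all genes: 1.23% lower, 1.04% higher).

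Whether groups overlapped library by library was counted as well. No gene had all ALIOS livers above all control livers or below them (0.071% and 0.0071% of all genes with a mean of at least 0.3 CPM had). In tumours without DEN only Cenpa stood above every ALIOS liver in every tumour, and none stood wholly below (all genes: 1.48% and 2.64%). For DEN tumours on ALIOS, 9 genes lay wholly above the livers and 1, Tk1, wholly below (all genes: 4.33% and 4.97%). For DEN tumours on the control diet, a group of only 5, 35 genes lay wholly above and 0 below (all genes: 11.4% and 11.3%). No cell cycle gene separated the tumours with and without DEN on ALIOS (all genes: 0% each way) or the DEN tumours by diet (0.325% and 0.352%). The heat map of all genes and libraries shows the same contrast as blocks of rows.

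**Figure D2:**
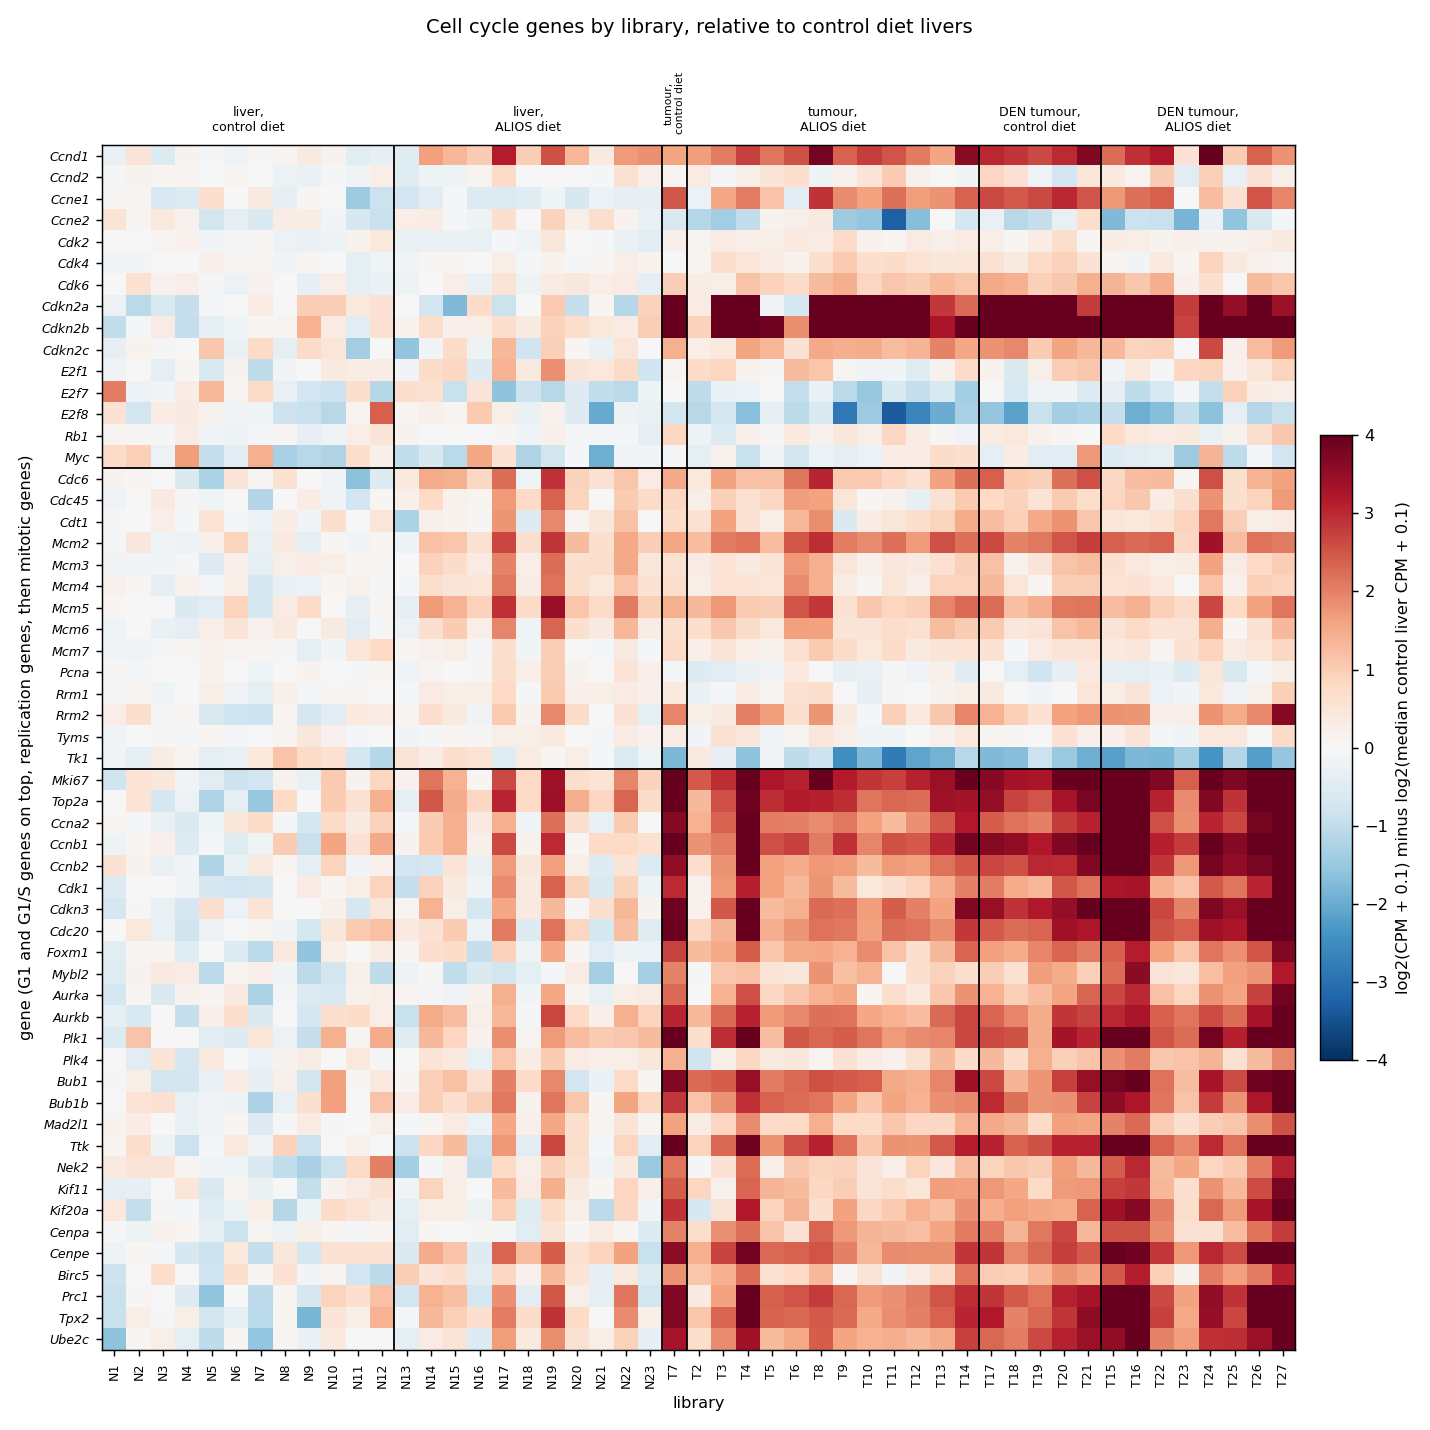
Level of each of the 56 genes (rows, by phase) in each of the 49 libraries (columns, by group), as log2(CPM + 0.1) minus that of the median control liver, with colours capped at 4 in either direction. The mitotic block is dark red in T4, T7, T15, T16, T26 and T27 and palest, among tumours, in T2, and N17 and N19 are the livers with the deepest red in the replication block.

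Among the G1 genes, Ccnd1 (cyclin D1, chr7:144929931-144939925, GRCm38, minus strand) was the one that rose with the diet in liver. It lay between 12.8 and 26.7 CPM in control livers (median 18.5) and between 13.2 and 163 CPM in ALIOS livers (median 46.7), with 9 of 11 ALIOS livers above every control liver. The change was 3.24-fold (log2 1.70, SE 0.29, edgeR adjusted p = 0.001413), and without N17 and N19 it was 2.31-fold (edgeR adjusted p = 0.003676). The other 14 G1 genes were not called. E2f1, an E2F activator, had a log2 change of 0.74 (SE 0.25, edgeR adjusted p = 0.05408), and Cdkn2a and Cdkn2b, the inhibitors, of -0.16 (SE 0.38) and 0.57 (SE 0.27).

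In tumours Ccnd1 was at 54.9 to 265 CPM without DEN on ALIOS (median 101), and at 27.6 to 295 CPM with DEN on ALIOS (median 92.0). Its 5 levels in DEN tumours on the control diet were 150, 134, 117, 147 and 245 CPM. Those 5 lay above all control livers, while the tumours on ALIOS overlapped the ALIOS livers. Against livers of the same diet Ccnd1 rose by log2 0.93 (SE 0.34, edgeR adjusted p = 0.02373) in tumours without DEN and by 3.12 (SE 0.17, edgeR adjusted p = 1.748e-11) in DEN tumours on the control diet, and in DEN tumours on ALIOS the log2 difference was 0.95 (SE 0.44, edgeR adjusted p = 0.08233). The last value passed without N17 and N19 (log2 1.44, edgeR adjusted p = 0.00886). The interaction was -2.15 (SE 0.53, edgeR adjusted p = 0.0258), so the gap between tumour and liver was smaller on ALIOS. The livers were higher there, and the DEN tumours had a median of 92.0 CPM, below all 5 DEN tumours on the control diet. Between the DEN tumours themselves the diet difference of Ccnd1 was not called. Without N17 and N19 the interaction was -1.67 (edgeR adjusted p = 0.07285). Exons of Ccnd1 overlap those of LTO1 on the other strand by 1100 bases, and the strand setting of the counting is not given in the sources used here. LTO1 had medians of 16.5 CPM in control livers, 18.8 CPM in ALIOS livers and 12.2 to 13.3 CPM in the tumour groups, and its part in the Ccnd1 count was not tested.

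Ccnd2 (cyclin D2) and the 2 E cyclins went different ways. Ccnd2 was not called in any comparison, with group medians from 9.07 to 12.9 CPM. Ccne1 (cyclin E1, chr7:38097984-38107534, minus strand) was at 0.734 to 3.42 CPM in control livers (median 2.15) and 1.22 to 2.07 CPM in ALIOS livers (median 1.58), with no call for the diet (log2 -0.30, SE 0.18, edgeR adjusted p = 0.2773). It reached 1.54 to 16.7 CPM in tumours without DEN on ALIOS (median 7.42), 2.11 to 12.7 CPM in DEN tumours on ALIOS (median 7.97), and 13.96, 12.3, 13.9, 18.2 and 12.9 CPM in DEN tumours on the control diet. Every DEN tumour was thus above every liver of its diet, and so were 10 of the 12 tumours without DEN, all but T2 and T6. The rises were 4.69-fold (edgeR adjusted p = 1.551e-06), 4.82-fold (edgeR adjusted p = 1.276e-06) and 7.32-fold (edgeR adjusted p = 3.417e-09), in the same order.

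Ccne2 (cyclin E2), a gene with the same role, fell in tumours on ALIOS. Its medians were 2.65 CPM in control and 3.12 CPM in ALIOS livers, 1.22 CPM in tumours without DEN and 1.40 CPM in DEN tumours on ALIOS. The log2 change was -1.02 (SE 0.32, edgeR adjusted p = 0.009331) without DEN and -1.17 (SE 0.26, edgeR adjusted p = 0.001079) with DEN, and 8 of 12 and 6 of 8 tumours lay below every ALIOS liver. In DEN tumours on the control diet, at 2.15, 1.19, 1.35, 2.12 and 4.42 CPM, it was not called (log2 -0.17, SE 0.30). Ints8, whose exons overlap Ccne2 by 609 bases, had medians of 16.9 to 19.3 CPM in all groups.

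Cdkn2b and Cdkn2a, inhibitors of the D cyclin kinases, had the largest log2 changes among the cell cycle genes tested in each comparison of tumour and liver. Cdkn2b (p15, chr4:89306299-89311039, GRCm38, minus strand) lies beside Cdkn2a (chr4:89274471-89294653, minus strand). Cdkn2b was at 0.0911 to 0.882 CPM in control livers and 0.313 to 0.651 CPM in ALIOS livers. Tumours without DEN on ALIOS ran from 0.619 to 71.0 CPM (median 18.9), DEN tumours on ALIOS from 2.35 to 45.4 CPM (median 20.2), and DEN tumours on the control diet had 42.6, 28.9, 37.9, 32.7 and 11.3 CPM. Apart from T2, at 0.619 CPM, every one of these 25 tumours was above every liver of its diet. Cdkn2b rose 46.3-fold (log2 5.53, SE 0.62, edgeR adjusted p = 3.629e-07), 47.2-fold (log2 5.56, SE 0.42, edgeR adjusted p = 1.767e-08) and 104-fold (log2 6.70, SE 0.32, edgeR adjusted p = 4.195e-12), folds set against liver levels under 1 CPM.

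Cdkn2a gives rise to the kinase inhibitor p16Ink4a and, in another reading frame, to the p53 regulator p19Arf, and counts per gene do not tell these transcripts apart. It was at 0.160 to 0.992 CPM in control livers and 0.0610 to 1.02 CPM in ALIOS livers. In tumours the range was 0.239 to 41.1 CPM without DEN on ALIOS (median 12) and 3.70 to 28.9 CPM with DEN on ALIOS (median 11.5), and the DEN tumours on the control diet had 40.7, 23.9, 32.2, 23.8 and 3.72 CPM. All 13 DEN tumours were above every liver of their diet, and so were 9 of the 12 tumours without DEN, while T2, T5 and T6 (0.581, 0.402 and 0.239 CPM) were at liver level. The rises were 25.4-fold (log2 4.66, SE 0.74, edgeR adjusted p = 1.603e-05), 29.2-fold (log2 4.87, SE 0.47, edgeR adjusted p = 2.086e-07) and 50.1-fold (log2 5.65, SE 0.39, edgeR adjusted p = 8.477e-10), and without T2 and T6 the first was 31.2-fold. T7, the tumour on the control diet without DEN, had 23.97 CPM of Cdkn2a and 35.2 CPM of Cdkn2b.

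**Figure D3:**
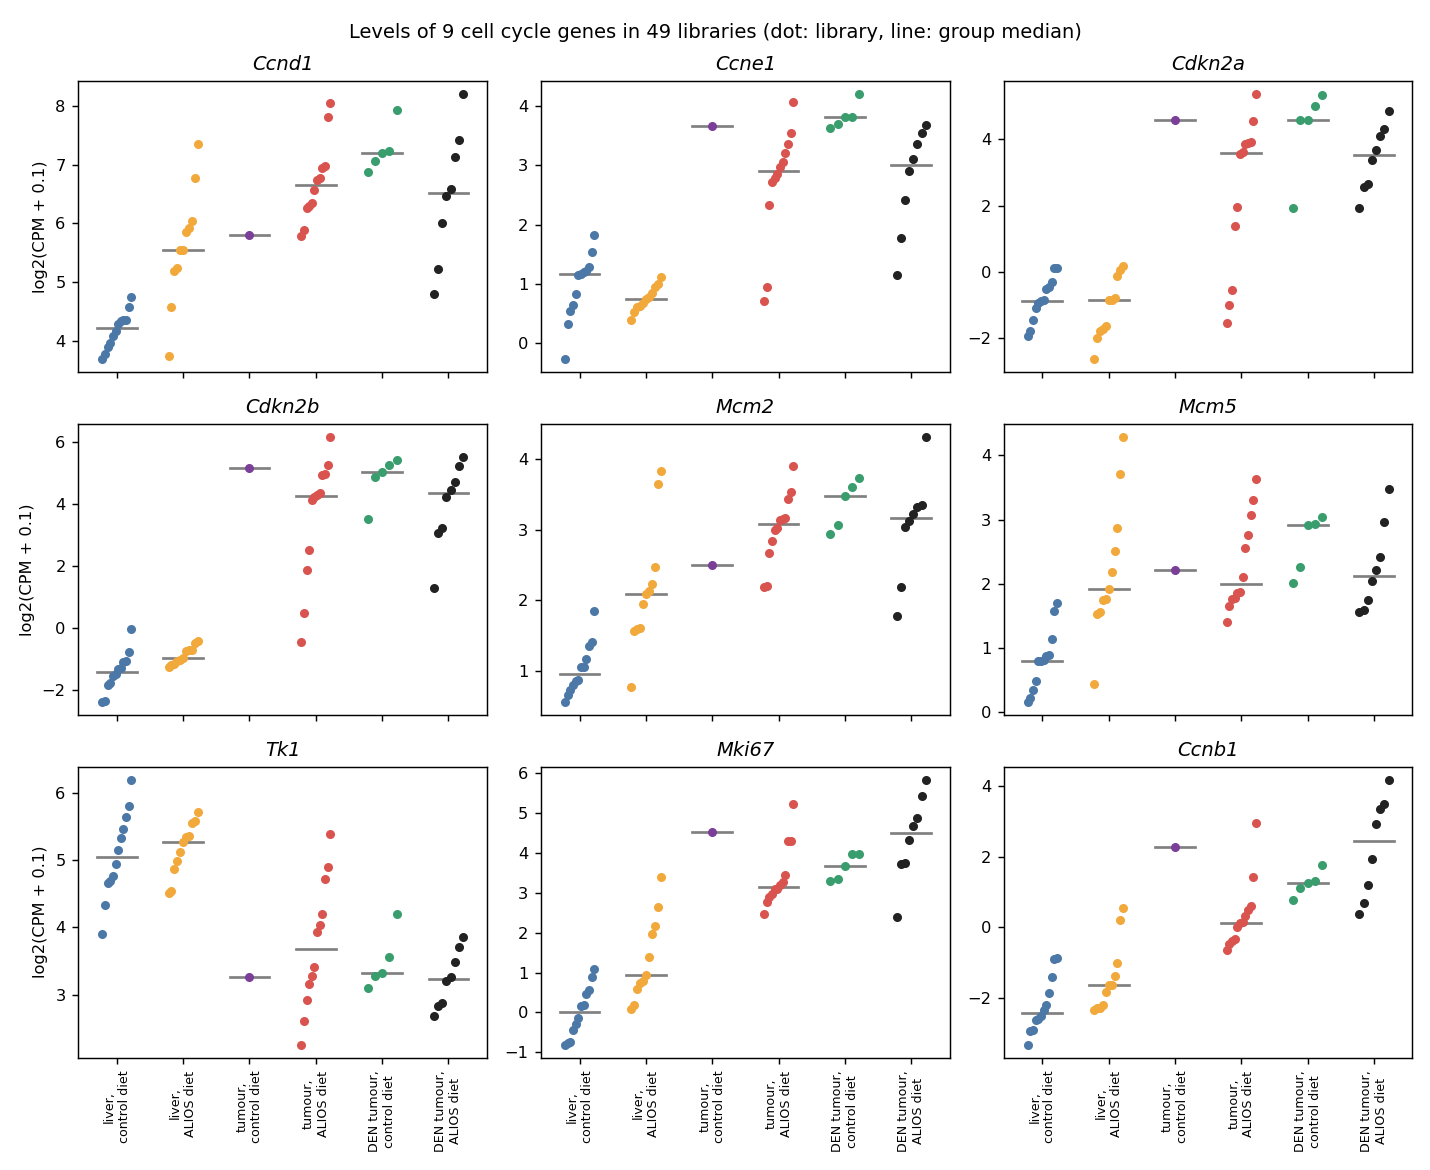
Levels of 9 cell cycle genes as log2(CPM + 0.1) (y axis) in the 6 groups (x axis); each dot is a library, sorted within its group by value, and each line is a group median (a single library for the tumour on the control diet). Cdkn2a and Cdkn2b separate most tumours from all livers, Mcm2 and Mcm5 in ALIOS livers reach the tumour range, and Tk1 is lower in tumours.

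Cdkn2c (p18), the third inhibitor of this family among the genes, rose less. Its medians were 2.72 and 2.75 CPM in control and ALIOS livers, 7.36 CPM in tumours without DEN, 5.88 CPM in DEN tumours on ALIOS and 8.38 CPM in DEN tumours on the control diet. The log2 changes were 1.04 (SE 0.27, edgeR adjusted p = 0.002498), 1.11 (SE 0.36, edgeR adjusted p = 0.0164) and 1.43 (SE 0.27, edgeR adjusted p = 0.0002222). Nothing was called for diet in liver (log2 0.07, SE 0.29).

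Of the kinases that these proteins bind, Cdk6 had larger changes than Cdk4. Cdk6 went from medians of 21.1 and 25.3 CPM in control and ALIOS livers to 44.1, 45.4 and 56.8 CPM in tumours without DEN, DEN tumours on ALIOS and DEN tumours on the control diet, with log2 changes of 0.83, 0.86 and 1.27. Cdk4 was called in tumours without DEN (log2 0.44, edgeR adjusted p = 0.0002958) and in DEN tumours on the control diet (log2 0.71, edgeR adjusted p = 2.019e-06) and not in DEN tumours on ALIOS (log2 0.23, edgeR adjusted p = 0.07709). Exons of Cdk4 overlap those of Tspan31 on the other strand by 641 bases. Tspan31 had medians of 265 and 323 CPM in control and ALIOS livers and 226 to 286 CPM in these tumour groups. Its part in the Cdk4 count was not tested. Cdk2, the partner of cyclin E, was called in all 3 tumour groups at log2 changes of 0.42, 0.39 and 0.30.

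Of the transcription factors, E2f8, a repressor of E2F targets, fell in all 3 tumour groups (log2 -1.45, -1.15 and -1.79, with edgeR adjusted p = 0.0007605, 0.003417 and 0.006943). Its liver levels were 1.93 to 23.1 CPM on the control diet and 0.988 to 8.90 CPM on ALIOS, against 0.340 to 3.24 CPM in tumours without DEN and 0.890 to 3.29 CPM in DEN tumours. E2f8 shares 610 bases of exon with Gm2788 on the other strand, which had medians of 31.4 and 24.2 CPM in livers and 1.57 to 2.59 CPM in those tumours, and in N12, the liver with the most E2f8, it was at 66.0 CPM. How much of the E2f8 count comes from Gm2788 was not tested. Rb1 (the retinoblastoma protein) was called in DEN tumours on ALIOS (log2 0.54, SE 0.13, edgeR adjusted p = 0.002575) and nowhere else. E2f1, E2f7 and Myc were called in no comparison, and Myc varied widely within groups, from 2.37 to 18.99 CPM in control livers and from 2.17 to 15.2 CPM in DEN tumours on ALIOS.

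In all, 8 G1 genes rose and 2 fell in tumours without DEN (median log2 change of the 15 genes 0.42, of all genes 0.01). In DEN tumours on ALIOS 7 rose and 2 fell (0.39, all genes 0.08), and in those on the control diet 8 rose and 1 fell (0.56, all genes 0.03). Of all genes tested 26.9%, 27.7% and 27.3% were higher and 25.9%, 19.8% and 24.4% lower, in the same order. With library totals in place of TMM the median of all genes in the first shifted from 0.01 to 0.19 and the all-gene split from 3812 higher and 3675 lower to 5526 and 2059, and the G1 genes had 9 higher and 2 lower. In the second the corresponding values were 0.21, 5159 and 1822 for all genes and 8 and 2 for the G1 genes, and in the third 0.10, 4269 and 2880 for all genes and 9 and 1 for the G1 genes.

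Replication genes rose with the diet in liver. Of 14, 8 were called higher and 0 lower in ALIOS livers (median log2 change 0.81, of all genes -0.02), the helicase subunits Mcm2, Mcm3, Mcm4, Mcm5 and Mcm6, the loader Cdc6, the helicase cofactor Cdc45 and Rrm1, a subunit of ribonucleotide reductase. With library totals the counts were 8 and 0 as well, against 1238 higher and 184 lower in all genes in place of 923 and 619. Mcm5 lay between 1.02 and 3.14 CPM in control livers (median 1.64) and between 1.25 and 19.4 CPM in ALIOS livers (median 3.70), and Mcm2 between 1.38 and 3.51 CPM (median 1.85) and between 1.60 and 14.2 CPM (median 4.15). In 8 of 11 ALIOS livers Mcm5 was above every control liver, in 7 Mcm2 was, and in 10 Mcm4 was. The log2 changes were 1.80 (SE 0.36, edgeR adjusted p = 0.004377) for Mcm5, 1.42 (SE 0.29, edgeR adjusted p = 0.005709) for Mcm2 and 1.09 (SE 0.23, edgeR adjusted p = 0.005793) for Mcm3.

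These rises were carried in part by 2 livers. N17 had 12.98 CPM of Mcm5 and 12.5 CPM of Mcm2, and N19 had 19.4 and 14.2 CPM. Without both, 6 of the 14 replication genes were called higher (Cdc6, Cdc45, Mcm2, Mcm3, Mcm4 and Mcm5; all genes: 2.09% higher, 0.897% lower), the change of Mcm5 was log2 1.11 (edgeR adjusted p = 0.02) and that of Mcm2 was 0.83 (edgeR adjusted p = 0.02031), and Mcm6 and Rrm1 were no longer called. N19 and N17 also had high summed levels of 15 macrophage genes (1053 and 772 CPM, against a median of 536 in ALIOS livers and 349 in control livers), and N17 of 10 stellate cell genes (596 CPM, against 244 and 222). N17 also had the highest liver sums of 8 cholangiocyte genes (236 CPM, against 58.5 and 39.2) and of 5 tumour marker genes (7.66 CPM, against 2.78 and 2.19). For diet in liver 10 of the 15 macrophage genes were called higher, Adgre1 and Cd68 among them (all genes: 6.73% higher, 4.51% lower). So were 4 of 6 T and NK cell genes tested, 3 of 10 stellate cell genes, 2 of 6 cholangiocyte genes tested, and 0 of 20 hepatocyte and 0 of 10 endothelial genes. Their part in the rise of the replication genes was not tested. In bulk tissue a change in the share of a cell type and a change in RNA per cell cannot be told apart.

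In tumours on ALIOS few replication genes were called against the ALIOS livers. Without DEN 0 rose and 2 fell (median log2 change -0.12, all genes: 26.9% higher, 25.9% lower). With DEN 1 rose and 2 fell (-0.02, all genes: 27.7% higher, 19.8% lower). These counts were below the all-gene shares in both directions. Mcm5 was at 2.54 to 12.3 CPM in tumours without DEN (median 3.89) and at 2.85 to 11.1 CPM in DEN tumours on ALIOS (median 4.27), next to the ALIOS liver median of 3.70. Its log2 differences were -0.16 (SE 0.38, edgeR adjusted p = 0.7385) and -0.21 (SE 0.43, edgeR adjusted p = 0.7074). Mcm2 was at 4.45 to 14.96 CPM (median 8.38) and at 3.33 to 19.8 CPM (median 8.94), with log2 differences of 0.63 (SE 0.30, edgeR adjusted p = 0.08139) and 0.79 (SE 0.38, edgeR adjusted p = 0.09546).

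That count changed with the livers it was set against. Without N17 and N19, 5 replication genes (Cdc6, Cdt1, Mcm2, Mcm7 and Rrm2) rose and 1 fell in tumours without DEN, and 3 rose and 1 fell in DEN tumours on ALIOS (all genes: 28.9% higher and 21.6% lower in the former, 25.7% and 19.1% in the latter). Mcm2 was then called in both (log2 1.24, edgeR adjusted p = 0.0001059, and log2 1.36, edgeR adjusted p = 0.001319), and Mcm5 in neither (log2 0.55, edgeR adjusted p = 0.1486, and log2 0.46, edgeR adjusted p = 0.257). With library totals, 2 rose and 1 fell without DEN and 3 rose and 1 fell with DEN, at medians of 0.02 and 0.12.

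On the control diet the DEN tumours had 9 replication genes called higher than in livers and 1 lower (all genes: 27.3% higher, 24.4% lower). The median log2 change was 0.93, and with library totals the counts were 10 and 1. Mcm5 was at 8.12, 3.92, 4.71, 7.48 and 7.52 CPM and Mcm2 at 12.1, 7.60, 8.30, 11.1 and 13.3 CPM, all above every control liver. The log2 changes were 2.39 (SE 0.18, edgeR adjusted p = 3.037e-09) for Mcm2, 1.87 (SE 0.24, edgeR adjusted p = 2.237e-06) for Mcm5, 1.25 (SE 0.17, edgeR adjusted p = 5.011e-06) for Cdt1 and 2.41 (SE 0.37, edgeR adjusted p = 2.337e-05) for Cdc6. Cdt1 and Cdc6 load the helicase onto origins of replication.

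The interaction put a test on this difference between the diets. It was -2.07 for Mcm5 (SE 0.54, edgeR adjusted p = 0.03431) and -2.38 for Cdc6 (SE 0.60, edgeR adjusted p = 0.03108), and neither Mcm2 (-1.59, SE 0.47, edgeR adjusted p = 0.06321) nor Mcm3 and Mcm4 (-1.26 and -1.27) was called. Cdc6 had medians of 0.324 CPM in control livers, 0.701 CPM in ALIOS livers and 0.910 CPM in DEN tumours on ALIOS, and was at 2.11, 0.772, 0.725, 1.87 and 2.45 CPM in DEN tumours on the control diet. Between the DEN tumours themselves the diet difference was not called (log2 -0.28, SE 0.35 for Mcm5 and -0.65, SE 0.45 for Cdc6). Mcm5 and Cdc6 were no longer called in the interaction without N17 and N19 (-1.41, edgeR adjusted p = 0.09343, and -1.80, edgeR adjusted p = 0.09109), nor without N19, T17 or T20 alone (-1.71, -1.97 and -2.01 for Mcm5 and -2.04, -2.25 and -2.32 for Cdc6). Without T21 alone Cdc6 was not called (-2.16, edgeR adjusted p = 0.05298). Without N17 and N19 the interaction had 0.406% of all genes higher and 0.515% lower. DESeq2 called 5 replication genes lower (all genes: 1.99% lower, 1.89% higher).

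Several enzymes of nucleotide supply did not follow the helicase. Tk1 (thymidine kinase, of the salvage pathway) was at 14.9 to 73.0 CPM in control livers (median 32.9) and 22.7 to 52.5 CPM in ALIOS livers (median 38.4), with no change by diet (log2 0.00, SE 0.21). Tumours without DEN had 4.69 to 41.7 CPM (median 12.9, the highest in T2), DEN tumours on ALIOS 6.35 to 14.4 CPM (median 9.31), and DEN tumours on the control diet 9.57, 9.91, 18.2, 11.7 and 8.47 CPM. All 8 DEN tumours on ALIOS were below every ALIOS liver. Tk1 fell by 1.24 (SE 0.29, edgeR adjusted p = 0.001148), by 1.92 (SE 0.19, edgeR adjusted p = 3.236e-07) and by 1.65 (SE 0.32, edgeR adjusted p = 0.0002308) on the log2 scale. Its exons overlap those of Afmid on the other strand by 83 bases, and Afmid had medians of 62.9 and 66.1 CPM in livers and 18.2 to 26.1 CPM in these tumour groups; the share of the Tk1 count that this overlap could give was not tested.

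Rrm2, the regulated subunit of ribonucleotide reductase, was the replication gene that rose in DEN tumours on both diets. Its medians were 2.24 and 2.90 CPM in control and ALIOS livers and 4.002 CPM in tumours without DEN, DEN tumours on ALIOS had 2.59 to 29.2 CPM (median 7.93), and DEN tumours on the control diet had 6.07, 4.42, 3.39, 7.07 and 7.62 CPM. The log2 changes were 1.42 (SE 0.39, edgeR adjusted p = 0.006203) and 1.41 (SE 0.25, edgeR adjusted p = 8.592e-05), and 0.49 (SE 0.29, edgeR adjusted p = 0.1587) without DEN. Pcna, the sliding clamp of DNA polymerases, fell in tumours on ALIOS without DEN (log2 -0.46, SE 0.13, edgeR adjusted p = 0.004827) and with DEN (log2 -0.42, SE 0.17, edgeR adjusted p = 0.04561), from a liver median of 17.6 to 13.9 and 12.96 CPM. Among livers Pcna was highest in N17 and N19 (25.9 and 31.6 CPM). The other ALIOS livers were at 14.6 to 23.4 CPM, tumours without DEN on ALIOS at 11.1 to 21.4 CPM and DEN tumours on ALIOS at 10.5 to 22.6 CPM. Without N17 and N19, and also with library totals, fewer replication genes fell in both comparisons of tumours on ALIOS with livers. The fall of Pcna may therefore depend on these choices. Tyms and Mcm7 were called in no comparison, with Tyms medians of 7.27 to 9.10 CPM over the groups with several libraries.

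Many mitotic genes had few counts in livers, while Cenpa, Mad2l1 and Nek2 were at control liver medians of 3.72, 2.32 and 2.30 CPM. For Ccnb1 (cyclin B1) the control livers had 0.00 to 0.451 CPM (median 0.0856), and for Plk1, a kinase of mitotic entry, 0.00 to 0.435 CPM (median 0.0901). Low counts kept 12 of the 27 (Aurkb, Bub1, Ccnb1, Cdc20, Cdkn3, Cenpe, Mybl2, Plk1, Plk4, Prc1, Tpx2 and Ttk) out of the comparison of diets in liver. Of the 15 tested, 3 rose, Mki67, Top2a and Ube2c (median log2 change of the 15 genes 0.67). Of all genes tested 6.73% were higher and 4.51% lower. With no filter edgeR called 5 of 27 (1365 of all genes), and DESeq2 called 9, all higher (all genes by DESeq2: 8.25% higher, 5.8% lower). Where the 12 genes were tested in tumours against livers, they were so largely through their counts in tumours. A call lower was hardly open to them there, which limits the counts of mitotic genes below. All 14 replication genes were tested in livers alone.

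Mki67, the gene of the Ki67 proliferation antigen (chr7:135689784-135716361, GRCm38, minus strand), was at 0.472 to 2.01 CPM in control livers (median 0.911) and at 0.963 to 10.5 CPM in ALIOS livers (median 1.81), with 5 of 11 ALIOS livers above every control liver. The change was log2 1.69 (SE 0.38, edgeR adjusted p = 0.008314). Top2a, the topoisomerase that untangles chromosomes, rose by log2 1.85 (SE 0.44, edgeR adjusted p = 0.01071), from a median of 0.564 CPM to one of 1.72 CPM, and Ube2c by 1.05 (SE 0.34, edgeR adjusted p = 0.0465). All 3 calls were lost without N17 and N19 (edgeR adjusted p = 0.05605, 0.07609 and 0.2811), where the change of Mki67 was log2 1.07. Cdk1 and Foxm1, the kinase and a transcription factor of mitosis, were not called for diet (log2 0.98, SE 0.34, and 0.58, SE 0.30).

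In tumours without DEN, 22 of 26 mitotic genes tested rose and 0 fell (median log2 change 1.32), Plk4 not having passed the filter. Of all genes tested 26.9% were higher and 25.9% lower. Genes too low to test in livers alone are in the mitotic counts and could hardly be called lower. Mki67 was at 5.46 to 37.5 CPM (median 8.76), above the ALIOS liver median in 12 of 12 tumours and above every ALIOS liver in 4. Its change was log2 1.91 (SE 0.41, edgeR adjusted p = 0.0004432). Cenpa, the histone that marks centromeres, gave the smallest p and no overlap, at 2.57 to 5.33 CPM in ALIOS livers and 5.61 to 18.95 CPM in the tumours (log2 1.60, SE 0.19, edgeR adjusted p = 7.599e-07), and its control livers were at 1.99 to 4.35 CPM. Mybl2, a subunit of the complex that switches on mitotic genes, rose by log2 1.57 (SE 0.29, edgeR adjusted p = 0.0001093). Birc5, Cdk1, Kif11 and Mad2l1 were not called, with log2 differences of 0.62, 0.72, 0.60 and 0.45.

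Tumours of this group differed among themselves. Ccnb1 was between 0.542 and 7.73 CPM (median 0.997), with the highest level in T4. In T4, 26 of the 27 mitotic genes were above every ALIOS liver, in T14 22 were, and in T2 2 were. Without T2 and T6, 24 of 26 were called, and without N17 and N19 all 26 tested were, Cdk1 among them (log2 1.35, edgeR adjusted p = 0.003365). With library totals 25 were called.

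DEN tumours on ALIOS had all 27 mitotic genes called higher (median log2 change 2.84; also 27 with library totals). Of all genes tested 27.7% were higher and 19.8% lower. The 27 include the genes too low to test in livers alone, which could hardly be called lower. Mki67 ran from 5.15 to 56.8 CPM (median 22.6; log2 2.99, SE 0.48, edgeR adjusted p = 5.349e-05), and Ccnb1 from 1.19 to 17.99 CPM (median 5.65), against 0.0956 to 1.37 CPM in ALIOS livers (median 0.2196). Ccnb1 rose by log2 4.18 (SE 0.61, edgeR adjusted p = 1.918e-05). Ccnb2, Cdkn3 (a phosphatase of Cdk kinases), Cdc20 (an activator of the anaphase-promoting complex), Mybl2, Plk1 and Cenpa were above every ALIOS liver in all 8 tumours. Ccnb2 gave the smallest p of the group (log2 3.77, SE 0.47, edgeR adjusted p = 3.183e-06), followed by Cdkn3 (log2 4.02, SE 0.51, edgeR adjusted p = 3.912e-06) and Cenpa (log2 2.06, SE 0.27, edgeR adjusted p = 4.974e-06).

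DEN tumours on the control diet had 26 of 27 called higher (median log2 change 2.88; 27 with library totals), and 24 were above every control liver in all 5 tumours. Of all genes tested 27.3% were called higher and 24.4% lower, and 11.4% of genes with a mean of at least 0.3 CPM lay wholly above. Here too, the genes too low to test in livers alone could hardly be called lower. The exception among calls was Nek2, a centrosome kinase, with a log2 difference of 0.94 (SE 0.39, edgeR adjusted p = 0.05431) and an N12 level of 9.61 CPM that was above all 5 tumours. Mki67 was at 12.5, 10.1, 9.66, 15.7 and 15.6 CPM and Ccnb1 at 2.28, 2.08, 1.62, 2.37 and 3.30 CPM. These spans were narrower than those on ALIOS, but they cover 5 tumours against 8, and a span widens with the number of libraries. The difference in spread was not tested. Mki67 rose by log2 3.67 (SE 0.27, edgeR adjusted p = 2.197e-09), Ccnb2 by 3.30 (SE 0.27, edgeR adjusted p = 1.014e-08), Cdkn3 by 5.03 (SE 0.44, edgeR adjusted p = 2.03e-08) and Top2a by 3.16 (SE 0.38, edgeR adjusted p = 1.2e-06). Cdk1 and Foxm1 rose by 2.13 and 2.28 here and by 2.22 and 2.32 in DEN tumours on ALIOS.

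Set against tumours without DEN on the same diet, DEN tumours on ALIOS had all 27 mitotic genes at a positive log2 difference (0.40 to 2.08, median 1.42), and 26 of them at an unadjusted p under 0.05, against 4.32% of all genes. No edgeR adjusted p was under 0.05: the smallest was 0.2276, for Ccnb2 (log2 1.86, SE 0.44) and Plk4 (log2 1.18, SE 0.28), and Ccnb1 and Mki67 had log2 2.08 (SE 0.55) and 1.03 (SE 0.40). DESeq2 called 10 mitotic genes there and edgeR with all 49 libraries called 18, each of them higher. Genes of one phase vary together from tumour to tumour and are not independent measurements. The replication genes had a median log2 difference of -0.01 and the G1 genes of -0.02 in the same comparison, and T4 was within the range of the DEN tumours.

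Between diets within DEN tumours, too, the 27 mitotic genes had positive log2 differences (0.02 to 1.58, median 0.99; all genes 0.04), 9 of them at an unadjusted p under 0.05. The smallest edgeR adjusted p was 0.4408, for Plk1 (log2 1.53, SE 0.56). The median of all genes there shifted from 0.04 to 0.14 with library totals and that of the mitotic genes to 1.04. Ccne1 and Cdk4 were the genes lower on ALIOS at an unadjusted p under 0.05 (log2 -0.89, SE 0.35, and -0.37, SE 0.16). In the interaction no mitotic gene was called by edgeR or by DESeq2 (of the 56 genes, 2 were higher at an unadjusted p under 0.05 and 11 lower, against 9.11% and 7.66% of all genes), and the mitotic median was 0.04.

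Sums over each phase put the libraries in order. The 27 mitotic genes summed to 13.3 to 32.0 CPM in control livers (median 17.1) and 15.4 to 69.6 CPM in ALIOS livers (median 27.1), and to 33.9 to 188 CPM in tumours without DEN on ALIOS (median 61.1), 69.1 to 116 CPM in DEN tumours on the control diet (median 91.9) and 47.4 to 387 CPM in DEN tumours on ALIOS (median 145). T7 had 152 CPM. The neighbouring tumour groups overlap in this order. Sums of the 14 replication genes had medians of 96.8, 121, 111, 122 and 101 CPM in the same order of groups, and overlapped throughout. Tk1 made up 17.1 to 51.2% of this sum in control livers and 6.41 to 19.01% in DEN tumours on the control diet. Without Tk1, a choice made after the values were seen, the sums were 55.8 to 72.5 CPM in control livers and 77.4 to 124 CPM in DEN tumours on the control diet, which did not overlap. In ALIOS livers they were then 59.4 to 200 CPM (median 82.5), overlapping the tumours without DEN (70.3 to 147 CPM, median 89.98) and the DEN tumours on ALIOS (70.5 to 149.5 CPM, median 93.4).

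The ratio of the mitotic to the replication sum was 0.124 to 0.366 in control livers and 0.135 to 0.297 in ALIOS livers, N17 and N19 included. It was 0.302 to 1.83 in tumours without DEN on ALIOS, 1.41 in T7, 0.745 to 0.955 in DEN tumours on the control diet and 0.5679 to 2.47 in DEN tumours on ALIOS. Every DEN tumour was above every liver, and so was T7, and of the tumours without DEN on ALIOS only T2, at 0.302, lay below the highest liver, N12 at 0.366. The fall of Tk1 enters this ratio through its denominator. Without Tk1 the ratio was 0.194 to 0.442 in control livers, 0.214 to 0.361 in ALIOS livers, 0.431 to 2.03 in tumours without DEN on ALIOS, 1.55 in T7, 0.807 to 1.06 in DEN tumours on the control diet and 0.672 to 2.71 in DEN tumours on ALIOS. Every DEN tumour and T7 again lay above every liver, and of the tumours without DEN on ALIOS only T6, at 0.431, lay below N12, at 0.442. The highest ratios were those of T16 and T27, and the lowest among DEN tumours was that of T23, which also had 19.8 CPM of Afp, the lowest of the 13. N19, with the largest replication sum of all 49 libraries (235 CPM), had a ratio of 0.297. The phase sums weight a gene by its level and its length, so the ratio compares libraries and not the phases themselves.

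**Figure D4:**
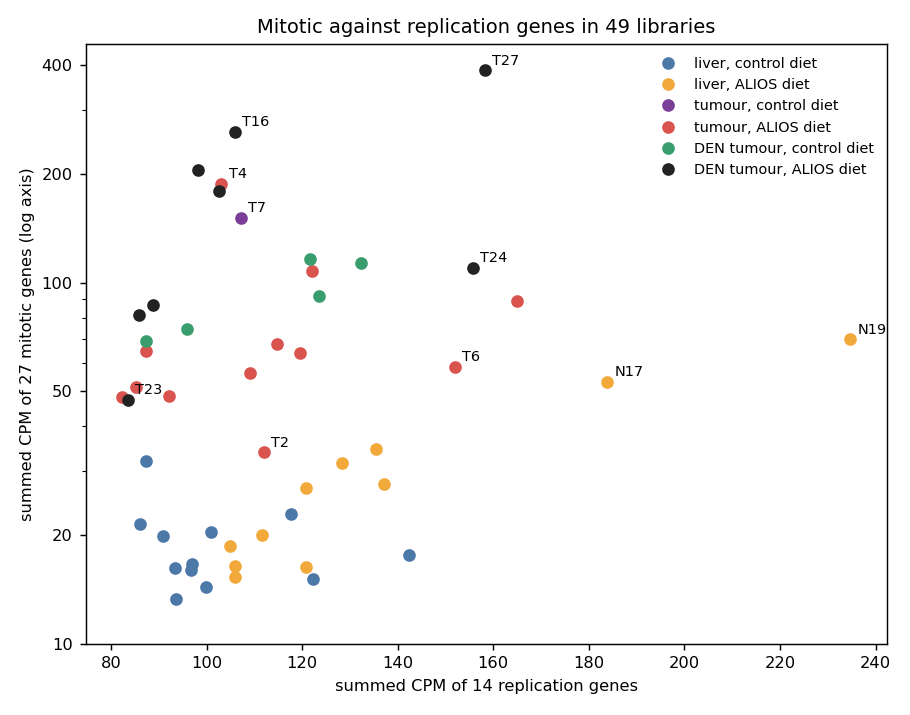
Summed CPM of the 27 mitotic genes (y axis, log scale) against that of the 14 replication genes (x axis) in 49 libraries, coloured by group, with 10 libraries named. Tumours lie above livers at like replication sums, and N17 and N19 lie to the right, at mitotic sums of 53.2 and 69.6 CPM.

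Marker levels of other cells were read in the tumours as well. The summed level of the 15 macrophage genes had medians of 324 CPM in tumours without DEN, 346 CPM in DEN tumours on ALIOS and 262 CPM in DEN tumours on the control diet, and 11 of the 15 genes were lower than in livers in the first, 3 in the second and 6 in the third, with 1 higher in each. The sum of the 20 hepatocyte genes, a large part of it Alb, had medians of 219800 to 234200 CPM in tumours and of 162300 and 151300 CPM in control and ALIOS livers. Gene by gene, 4 hepatocyte genes were higher and 10 lower in tumours without DEN (median log2 -0.37), 4 and 6 in DEN tumours on ALIOS (-0.04), and 4 and 7 in DEN tumours on the control diet (-0.41), and Alb was among those higher in each. Of 10 stellate cell genes 2 were higher and 2 lower in tumours without DEN. In DEN tumours these counts were 4 and 3 on ALIOS and 6 and 2 on the control diet. Of the T and NK cell genes tested, 1 and 1 of 10, 1 and 0 of 13, and 5 and 1 of 9 were higher and lower, in the same order. Of 7 cholangiocyte genes tested 3 were higher and 0 lower in each. Of all genes tested, 26.9% were higher and 25.9% lower in tumours without DEN. These shares were 27.7% and 19.8% in DEN tumours on ALIOS, and 27.3% and 24.4% in those on the control diet. The stellate cell counts without DEN and the counts of hepatocyte genes higher were below these shares. The part of these cells in the cell cycle results was not tested.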

How the data were processed

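RNA-seq libraries were made by the study with a stranded mRNA kit and read in pairs. Per the labels and the study's methods, the authors aligned reads to mm10 with STAR and counted them over exons with HTSeq on Gencode M6, and deposited raw counts per gene with no normalization; tool versions and the strand option are not given in the sources used here. Groups came from the sample labels. T1 was left out.

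The members and all gene lists were chosen with earlier results of these data known. Counts were analysed with edgeR 4.0.16 in R 4.3.3 (filterByExpr, TMM, glmQLFit, glmQLFTest, two-sided, Benjamini-Hochberg adjustment over all genes tested, threshold 0.05), each of 7 comparisons on its own groups, after tests on simulated data. SE is the absolute log2 change over the root of F. Levels are CPM, TMM-scaled over 49 libraries, and depth was 23798251 to 45751398 counts. Alternatives were DESeq2 1.42.0, library totals, no filter, all 49 libraries in one fit, a fold change of 2 in addition, size factors of the RLE method, a replicate block, T1 included, and single libraries left out: each DEN tumour on the control diet in turn, N19, T9 and T24. The left-out pairs N17 with N19 and T2 with T6, sums without Tk1, the minimum of 0.3 CPM for non-overlap, the log2(CPM + 0.1) scale for the search for single libraries, and the motifs and promoters shown were chosen after seeing the data.

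Genes named were a fixed set of 19 (Mki67, Top2a, Ccnb1, Cdk1, Foxm1, Mcm2, Mcm5, Pcna, Rrm2, Ccnd1, Ccnd2, Ccne1, Ccne2, Cdkn2a, Cdkn2b, Cdkn2c, E2f1, Rb1 and Myc), plus, in each comparison, the 3 called genes of smallest p per phase and direction. Others are named to complete a count or for their overlap with a neighbour. Coordinates and exon overlaps are from Gencode M21 (GRCm38, the build of mm10), and promoters are from RefSeq.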

Additional observations from a re-analysis of the deposited data

Results flagged for a closer look

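A search over 112 sets of values (each of the 56 genes in each of the 2 DEN tumour groups, on the log2(CPM + 0.1) scale) found 5 values, from 4 libraries, far from the rest of their group by Dixon's criterion, where chance alone gives about 5 percent, or 5.6. In DEN tumours on the control diet, Cdkn2a was at 3.724 CPM in T21 and 23.8 to 40.7 CPM in the other 4, Kif11 at 1.12 CPM in T19 and 2.02 to 2.32 CPM in the others, and Kif20a at 4.099 CPM in T21 and 2.15 to 2.43 CPM in the others. In DEN tumours on ALIOS, Cdt1 was at 6.689 CPM in T24 and 1.75 to 3.01 CPM in the other 7, and Aurkb, a mitotic kinase, at 6.536 CPM in T27 and 1.004 to 2.34 CPM in the others. T21 had 46.0 CPM of Afp, the lowest of the control diet DEN tumours, and T24 had the highest Afp (2567 CPM) and stellate cell sum (1312 CPM) of its group.

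The diet difference was tested between DEN tumours and livers, and it differed for 3 of the 56 genes (all genes: 1.04% higher, 1.23% lower), by -2.15 for Ccnd1, -2.38 for Cdc6 and -2.07 for Mcm5 on the log2 scale. Without N17 and N19 none of the 3 was called (edgeR adjusted p = 0.07285, 0.09109 and 0.09343), and without N19, T17 or T20 alone only Ccnd1 was.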

How the results depend on the processing

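No called value changed sign under any alternative run. For diet in liver, 12 cell cycle genes and 1542 of all genes were called. DESeq2 gave 20 and 2451, the fit of 49 libraries 623 of all genes, a 2-fold change in addition 343, and leaving out N17 and N19 gave 7 and 413. Leaving out N19 alone gave 957 of all genes. The 2-fold criterion gave 1990 of all genes (in place of 7487) in tumours without DEN, 2310 (6851) and 3177 (7618) in DEN tumours on ALIOS and on the control diet. Between DEN tumours and tumours without DEN, DESeq2 called 10 cell cycle genes and 86 of all genes, and the fit of 49 libraries 18 and 403, in place of 0 and 0. For diet in DEN tumours, with 2 of all genes called, DESeq2 called 152, the fit of 49 libraries 296, no filter 1, the 2-fold criterion 1, and leaving out T24 or 1 of T17 to T21 gave 0 to 14 (without T24). For the interaction, with 3 cell cycle genes and 354 of all genes, DESeq2 gave 7 and 646, the fit of 49 libraries 220 of all genes, the 2-fold criterion 218, leaving out N17 and N19 0 and 143, and leaving out N19, T24 or 1 of T17 to T21 gave 1 (without N19, T17 or T20) to 7 (without T24) and 174 to 732.

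With the replicate number as a block, in which only libraries that share a number count, 7 cell cycle genes and 538 of all genes were called in tumours without DEN and 14 and 1515 in DEN tumours on ALIOS. The numbers were not taken to pair the samples, since the correlations of same-numbered libraries were between -0.17 and 0.08.

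Low counts limit the mitotic genes in livers, 12 of which could not be tested for diet. Genes that share exons with a neighbour may hold its reads. The causes of these differences between settings were not tested.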

Other observations

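Further cell cycle genes outside the 56 were counted in lists of 37 G1, 50 replication and 86 mitotic genes. In ALIOS livers 11 of 43 other replication genes tested were higher and 1 lower, led by Uhrf1, which maintains DNA methylation behind the fork (log2 2.49), and Gins2, a helicase subunit (1.21), with Mcm10 lower (-0.67). Of the other mitotic genes 9 of 47 were higher, Smc2 (0.65) and Arhgap11a (1.14) first, and 1, Cdc16, was lower (-0.15). Of the other G1 genes 1 of 35 was higher, Cdkn1c (0.82), and 1 lower, Tfdp2 (-0.29). Of all genes tested 6.73% were higher and 4.51% lower.

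In tumours without DEN 33 of 75 other mitotic genes were higher and 7 lower (Ckap2 2.85 and Cit 3.12, against Cks2 -0.65 and Spc24 -1.45), 6 of 47 other replication genes were higher and 10 lower (Cdc7 1.88 and Timeless 0.91, against Rpa1 -1.04 and Pold2 -0.38), and 12 of 35 other G1 genes were higher and 7 lower (Btg2 2.57 and Fbxw7 0.97, against Rbbp4 -0.65 and Rbl2 -0.69). Of all genes 26.9% were higher and 25.9% lower, so the replication counts were below the all-gene share in both directions. In DEN tumours on ALIOS the counts were 62 and 3 of 81 (Cit 4.19 and Gtse1 2.79, against Spc24 -1.78 and Wee1 -1.66), 9 and 6 of 47 (Cdc7 2.18 and Dbf4 1.0, against Gmnn -0.61 and Mcm10 -1.79), and 19 and 7 of 35 (Cdkn1a, the p53 target p21, 4.31 and Cdc25a 0.98, against Rbl2 -0.60 and Mnat1 -0.34). Of all genes 27.7% were higher and 19.8% lower, and the replication counts were again below both shares.

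On the control diet DEN tumours had 60 other mitotic genes higher and 2 lower of 76 (Ckap2 5.0 and Pkmyt1 4.34, against Cks2 -0.76 and Spc24 -1.32), 25 other replication genes higher and 7 lower of 47 (Uhrf1 3.36 and Timeless 1.84, against Rpa1 -0.94 and Mcm10 -2.12), and 15 other G1 genes higher and 7 lower of 35 (Btg2 3.67 and Mybl1 3.16, against Rbbp4 -0.95 and Tfdp2 -0.66). Of all genes 27.3% were higher and 24.4% lower. In the interaction Uhrf1 was lower (-2.99, edgeR adjusted p = 0.02956) and Cks2 higher (0.64, edgeR adjusted p = 0.04901), where 1.23% of all genes were lower and 1.04% higher.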
